A study of Mus musculus with 8 samples.

Results

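The Hippo pathway is a kinase cascade that keeps the transcriptional coactivators YAP and TAZ out of the nucleus. Its MST kinases activate the LATS kinases, which phosphorylate YAP and TAZ so that they stay in the cytoplasm or are degraded, and angiomotin proteins hold them there as well. When the cascade is off, YAP and TAZ bind the TEAD transcription factors and switch on genes of growth, matrix and cytoskeleton. In liver, YAP is known from stellate cells, the vitamin A-storing cells of the sinusoid, as a driver of their conversion into collagen-producing myofibroblasts. The 10 genes described here are Yap1, Wwtr1 (which encodes TAZ), Tead1, Tead2, Tead3, Tead4, Lats1, Lats2, Amotl1 and Amotl2. They were taken by gene symbol from a table of 45777 genes, and all 10 were found and had enough reads to be tested.

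The 4 siPAK4 libraries came from primary hepatic stellate cells transfected with siRNA against PAK4, a p21-activated kinase of the actin cytoskeleton, and the 4 siControl libraries from such cells transfected with a control siRNA. Both groups were cells of male, wild-type C57BL/6 mice, carry the label Batch 1, and were made with a stranded mRNA library kit. The series text places the knockdown during stellate cell activation. The time in culture, the age of the mice and whether a replicate was a separate animal or a separate dish are given by no source used here, so the tests compare the groups with the spread among these libraries and cannot separate technical from biological replication.

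Library totals ranged from 55728583 to 61535063 counts, and the 10 genes together took 49912 to 60359 of them. Pak4 had 7.73, 5.7, 5.17 and 6.69 CPM (counts scaled to library size) in siPAK4 replicates 1 to 4, against 18.6, 17.7, 16.4 and 16.2 CPM in siControl replicates 1 to 4. The groups did not overlap, and the siRNA target was lower in every library labelled siPAK4. SiPAK4 replicate 3 lay apart from the other siPAK4 libraries on the second principal component of log2 CPM, at -50.5 against 10.9 to 24.2. The fold changes of the 10 genes, and of some others, are therefore given with and without it. The stellate markers Dcn and Col1a2 were abundant, at 479 ± 52.9 and 268 ± 56.8 CPM in siPAK4 and 425 ± 32.4 and 639 ± 72.9 CPM in siControl (SD, n = 4 each). They were the highest of the 10 stellate markers. Reln, Pdgfrb and Des averaged 34.7, 15.2 and 12.4 CPM in siPAK4 and 30.9, 27.5 and 18 CPM in siControl. Hand2, Rgs5, Lhx2 and Ngfr were scarce, at 2.94, 1.69, 0.656 and 0.162 CPM in siPAK4 and 2.71, 1.35, 0.469 and 0.283 CPM in siControl. Lrat, the retinol-esterifying enzyme of quiescent stellate cells, had only 7 to 22 counts per siPAK4 library and 0 to 4 per siControl library. Transcripts of other liver cells were present as well, some at higher levels. The endothelial markers Cdh5 (mean 1050 CPM in siPAK4, 1620 in siControl) and Pecam1 (966 in siPAK4, 1080 in siControl) exceeded every stellate marker. The summed level of 10 macrophage markers was 5010 to 8130 CPM in siPAK4 and 8840 to 10200 CPM in siControl, and that of 10 endothelial markers 3100 to 4530 CPM in siPAK4 and 5190 to 5280 CPM in siControl. These sums hide differences among their genes. Lyz2 made up most of the macrophage sum (4850 ± 1290 CPM in siPAK4 and 7810 ± 532 CPM in siControl; SD, n = 4 each), and 6 of 9 tested macrophage markers were lower while Adgre1, Cd68 and Timd4 did not pass. Of the endothelial markers 5 were lower, 3 were higher (Clec14a, Tek and Clec4g) and 2 did not pass (edgeR, adjusted p under 0.05). Summed mesothelial markers (6 genes) reached 84.9 to 127 CPM in siPAK4 and 210 to 265 CPM in siControl. Summed hepatocyte markers (8 genes) reached 6.42 to 16.2 CPM in siPAK4 and 1.49 to 3.16 CPM in siControl. Summed cholangiocyte markers (6 genes) were 1030 to 1500 CPM in siPAK4 and 1130 to 1600 CPM in siControl, almost all of it Spp1, which macrophages also express. The 10 stellate markers summed to 726 to 912 CPM in siPAK4 and 1040 to 1200 CPM in siControl, most of the difference being Col1a2. Of the 9 tested, Col1a2, Pdgfrb and Des were lower and 6 did not pass (median log2 fold change 0.12). No marker on these lists was at 0 in all 8 libraries. In such bulk RNA, fewer cells of a type cannot be told apart from less RNA per cell, and the part of these cells in the values below was not tested.

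Of the 10 genes, Tead1 and Tead3 were lower with siPAK4, none was higher, and 8 did not pass (edgeR's quasi-likelihood test, Benjamini-Hochberg adjusted p under 0.05 over all 17975 tested genes). That is 2 of 10 called lower, where 14.5% of all tested genes were lower, 12.4% higher and 26.9% called in either direction. For the count of 0 higher, 1 gene (Tead2) had an unadjusted p under 0.05 and a positive fold change, and DESeq2 and limma-voom also called 0 higher. The median log2 fold change of the 10 genes was 0 and that of all tested genes 0.01. The balance over all genes depends on scaling: 46.1% of calls were higher with TMM, 67.6% with library totals alone and 70.1% with FPKM.

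**Figure D1:**
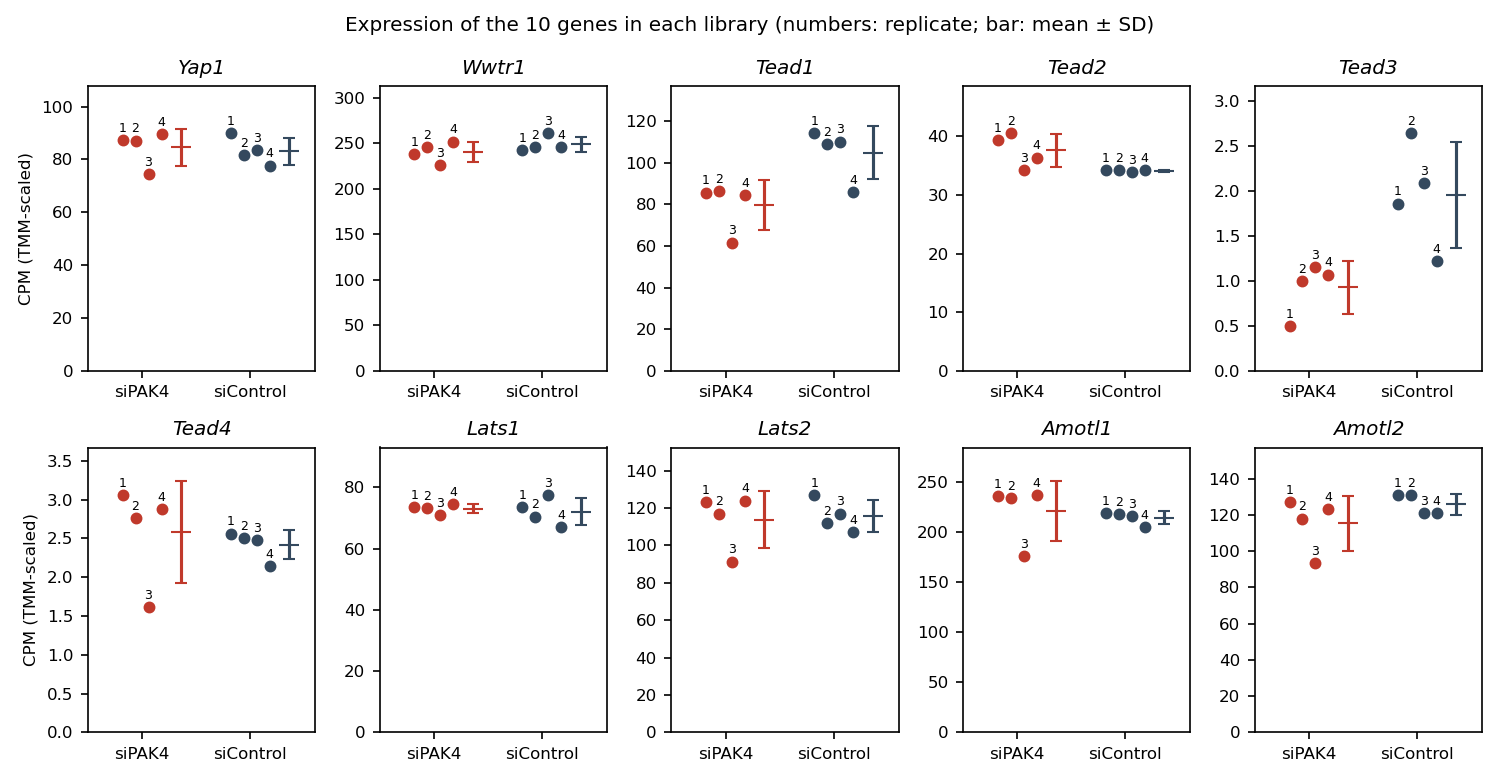
TMM-scaled CPM of each of the 10 genes in the siPAK4 (red) and siControl (dark blue) libraries, with the replicate number over each point and the mean ± SD (n = 4) beside the points; every vertical axis starts at 0. Tead3 lies lower in all 4 siPAK4 libraries, Tead1 is lower with siControl replicate 4 at the siPAK4 level, and siPAK4 replicate 3 is the lowest siPAK4 library for 9 of the 10 genes (not Tead3).

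TEAD proteins bind DNA at the muscle CAT motif, whose core reads CATTCC on one strand and GGAATG on the other, so the promoters of the genes at issue are shown with this core in capitals. Windows of 300 bases (250 before and 50 after the annotated start) were read on the gene's own strand, 5′ to 3′, from RefSeq's GRCm38.p6 table, the build also called mm10. A window's start is that of 1 transcript, and it can lie inside the gene's outer bounds given further on: by 713 bases in Amotl2, 205 in the Tead3 window printed and 42 in Yap1. Tead3 has the largest change among the 10 genes and the most matches in a window. Yap1 and Wwtr1 encode the coactivators. Amotl2, a LATS activator that YAP itself induces, and the established YAP targets Ccn1 and Ankrd1 each have a match close to the start.

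Tead3, chr17:28350551-28350850, minus strand: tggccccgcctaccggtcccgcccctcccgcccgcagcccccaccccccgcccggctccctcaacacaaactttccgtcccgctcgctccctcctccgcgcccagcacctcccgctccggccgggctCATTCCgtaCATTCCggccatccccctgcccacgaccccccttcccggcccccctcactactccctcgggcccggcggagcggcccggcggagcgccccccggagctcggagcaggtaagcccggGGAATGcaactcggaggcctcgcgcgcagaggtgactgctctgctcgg
Yap1, chr9:8004547-8004846, minus strand: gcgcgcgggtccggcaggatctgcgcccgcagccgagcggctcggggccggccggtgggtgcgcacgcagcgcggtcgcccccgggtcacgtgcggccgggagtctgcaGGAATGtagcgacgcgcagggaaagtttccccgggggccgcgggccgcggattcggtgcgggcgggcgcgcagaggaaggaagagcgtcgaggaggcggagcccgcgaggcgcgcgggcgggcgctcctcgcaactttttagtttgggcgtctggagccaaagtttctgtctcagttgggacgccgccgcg
Wwtr1, chr3:57575861-57576160, minus strand: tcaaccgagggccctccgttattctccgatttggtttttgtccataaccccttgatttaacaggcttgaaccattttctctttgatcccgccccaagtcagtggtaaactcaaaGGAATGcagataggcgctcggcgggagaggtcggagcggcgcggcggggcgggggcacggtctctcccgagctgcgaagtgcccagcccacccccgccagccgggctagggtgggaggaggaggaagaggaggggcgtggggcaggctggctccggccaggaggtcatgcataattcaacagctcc
Amotl2, chr9:102717554-102717853, plus strand: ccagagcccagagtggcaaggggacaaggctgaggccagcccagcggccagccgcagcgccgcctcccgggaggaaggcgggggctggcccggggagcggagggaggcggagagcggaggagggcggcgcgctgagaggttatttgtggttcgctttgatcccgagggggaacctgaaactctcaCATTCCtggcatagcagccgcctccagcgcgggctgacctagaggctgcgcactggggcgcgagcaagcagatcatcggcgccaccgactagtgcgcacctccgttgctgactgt
Ccn1, chr3:145649936-145650235, minus strand: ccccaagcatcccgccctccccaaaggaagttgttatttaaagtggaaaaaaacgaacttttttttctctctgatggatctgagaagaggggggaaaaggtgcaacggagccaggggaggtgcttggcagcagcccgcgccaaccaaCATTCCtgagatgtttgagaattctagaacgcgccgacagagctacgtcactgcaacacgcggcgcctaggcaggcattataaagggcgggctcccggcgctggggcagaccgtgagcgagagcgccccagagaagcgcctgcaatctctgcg
Ankrd1, chr19:36119795-36120094, minus strand: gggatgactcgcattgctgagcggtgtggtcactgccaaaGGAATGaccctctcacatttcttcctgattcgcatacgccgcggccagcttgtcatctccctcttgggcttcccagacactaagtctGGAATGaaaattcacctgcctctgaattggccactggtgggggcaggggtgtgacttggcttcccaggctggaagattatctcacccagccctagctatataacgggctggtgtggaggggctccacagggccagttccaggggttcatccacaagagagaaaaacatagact

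With the window's own start counted as base 1 and the base before it as -1, the printed Tead3 window held CATTCC beginning at -123 and -114 and GGAATG beginning at base 3. Yap1 held GGAATG at -141, Wwtr1 at -136, and Ankrd1 at -210 and -123, while CATTCC began at -65 in Amotl2 and at -103 in Ccn1. Among the 8 of the 10 genes with a window in the table, 5 held the core (Yap1, Wwtr1, Tead3, Lats2 and Amotl2), as did 5 of the 13 target genes with a window and 16.6% of 27025 genes in the table. Some genes have several overlapping windows: by window, 7 of 12 for the 10 genes held it, against 14.7% of all 32851. These are matches of letters in a window, with no binding measured. The core was present both in genes that were lower with siPAK4 (Tead3, Ccn1, Ankrd1) and in genes that did not pass the test (Yap1, Wwtr1, Lats2, Amotl2 and the targets Axl, Crim1 and Ptpn14). Several targets that were lower had a window without the core: Tgfb2, which had the largest change of the signature, Myof, F3, Igfbp3 and Rbms3. Only windows that hold a match are printed.

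The coactivator transcripts did not pass the test for either gene. Yap1 (NCBI gene 22601, mm10 chromosome 9, 7931999 to 8004638, minus strand) had 87.2, 87.1, 74.3 and 89.5 CPM in siPAK4 replicates 1 to 4, against 89.8, 81.6, 83.4 and 77.6 CPM in siControl replicates 1 to 4. The groups overlapped throughout, and the lowest value of all 8 was siPAK4 replicate 3. The log2 fold change was 0.02 (SE 0.0695, adjusted p = 0.83 by edgeR), with a 95% interval of -0.13 to 0.18, and 0.08 without siPAK4 replicate 3. Wwtr1 (chromosome 3, 57455644 to 57575910, minus strand) had 238, 246, 226 and 252 CPM in siPAK4, against 243, 246, 261 and 246 CPM in siControl. Its groups overlapped too, with siPAK4 replicate 3 again lowest and siControl replicate 3 highest. Its log2 fold change was -0.05 (SE 0.0537, adjusted p = 0.55 by edgeR; 95% interval -0.17 to 0.07), and -0.02 without siPAK4 replicate 3; its sign was positive with library totals and with FPKM (0.04 in both).

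Per transcript length, Wwtr1 was the most abundant of the 10 genes in both groups. Its deposited TPM, which is scaled to transcript length and to a fixed total per library, averaged 112 ± 10.1 in siPAK4 and 112 ± 4.42 in siControl (SD, n = 4 each). Yap1 averaged 45.6 ± 6.23 TPM in siPAK4 and 44.1 ± 4.37 TPM in siControl. The TPM ratio of Yap1 to Wwtr1 was 0.378 to 0.429 in siPAK4 libraries and 0.368 to 0.447 in siControl libraries, so the ranges overlapped.

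The other genes followed Wwtr1 in siControl in the order Amotl2 (64.2 ± 4.18 TPM), Amotl1 (51 ± 2.61), Lats2 (48.8 ± 4.44), Yap1, Tead2 (34.2 ± 0.825), Tead1 (22.8 ± 3.26), Lats1 (21.5 ± 1.76), Tead4 (1.7 ± 0.178) and Tead3 (1.51 ± 0.465). Amotl1, Lats2 and Yap1 overlapped one another over the siControl libraries, as did Tead1 with Lats1 and Tead4 with Tead3. Compared within each library, Lats2 stood above Yap1 in every siControl library. Lats2 exceeded Amotl1 in siControl replicate 1, Tead3 exceeded Tead4 in siControl replicate 2, and Lats1 exceeded Tead1 in siControl replicate 4. In siPAK4 libraries the order was the same except that Lats1 (22.4 ± 1.77 TPM) stood above Tead1 (17.8 ± 3.54 TPM), with ranges that overlapped slightly. Every neighbouring pair from Amotl2 down to Tead2 overlapped in these libraries as well.

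The TEAD genes encode the DNA-binding partners of YAP and TAZ, and the calls among the 10 genes fell within them. Tead1 (chromosome 7, 112679356 to 112906784, plus strand) had 85.6, 86.4, 61.5 and 84.4 CPM in siPAK4 replicates 1 to 4, against 114, 109, 110 and 85.8 CPM in siControl replicates 1 to 4. SiControl replicates 1 to 3 lay above every siPAK4 library, while siControl replicate 4 lay within the siPAK4 values. Tead1 was lower, with log2 fold change -0.40 ± 0.116 (SE; adjusted p = 0.025 by edgeR). Its call was lost without siControl replicate 1 (adjusted p = 0.068), 2 (adjusted p = 0.065) or 3 (adjusted p = 0.069), and with library totals, TPM and FPKM, with adjusted p by edgeR, DESeq2 or limma from 0.0058 to 0.13 over all alternatives. Without siPAK4 replicate 3 the log2 fold change was -0.30 and the call was kept (adjusted p = 0.015).

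Tead3 (chromosome 17, 28331671 to 28350805, minus strand) was scarce. It had 29, 59, 69 and 63 counts, or 0.501, 1, 1.15 and 1.07 CPM, in siPAK4 replicates 1 to 4, against 103, 148, 123 and 69 counts, or 1.86, 2.64, 2.09 and 1.22 CPM, in siControl replicates 1 to 4. All siPAK4 values lay below all siControl values, by a narrow margin between siPAK4 replicate 3 and siControl replicate 4. The log2 fold change was -1.07 (SE 0.281, adjusted p = 0.015 by edgeR; 95% interval -1.68 to -0.45). Without siControl replicate 2 it was -0.89 and the call was lost (adjusted p = 0.057; 0.002 to 0.057 by edgeR, DESeq2 or limma over all alternatives), and without siPAK4 replicate 3 it was -1.18.

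Tead2 (chromosome 7, 45215792 to 45233468, plus strand) leaned the other way. It had 39.4, 40.5, 34.3 and 36.4 CPM in siPAK4 replicates 1 to 4, against 34.3, 34.2, 33.9 and 34.2 CPM in siControl replicates 1 to 4. The siControl libraries were tightly grouped, and siPAK4 replicate 3 was level with the highest of them to the digits given; by TPM it was lower than all of them (33 TPM in siPAK4 replicate 3, 33.2 to 35.2 TPM in siControl), so that the groups overlapped. Its log2 fold change of 0.14 (SE 0.0639) did not pass (adjusted p = 0.13 by edgeR), but did without siPAK4 replicate 3 (0.18, adjusted p = 0.032), with library totals (0.23, adjusted p = 0.025) and with FPKM (0.22, adjusted p = 0.02 by limma). By unrounded CPM, groups that do not overlap were found for Tead2 and Tead3 among the 10 genes, and for 28.8% of all tested genes. Tead4 (chromosome 6, 128227143 to 128300813, minus strand) was low, with 3.06, 2.76, 1.61 and 2.88 CPM in siPAK4 and 2.56, 2.5, 2.48 and 2.14 CPM in siControl. The groups overlapped, siPAK4 replicate 3 being the lowest of the 8 and the other 3 siPAK4 libraries the highest. Its log2 fold change was 0.09 (SE 0.189, adjusted p = 0.77 by edgeR), and 0.26 without siPAK4 replicate 3 (adjusted p = 0.18).

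The shares of Tead1 and Tead2 in the TEAD transcripts lay apart between the groups, as read from ranges without a test. Tead1 made up 30.5, 30.2, 26.7 and 31.7% of the summed TEAD TPM in siPAK4 replicates 1 to 4, against 39.7, 38.3, 38.9 and 33.6% in siControl replicates 1 to 4. Tead2 made up 65.3, 65.5, 69.2 and 63.5% in siPAK4, against 55.1, 55.6, 55.5 and 62% in siControl. Neither share overlapped between the groups, and siControl replicate 4 lay nearest to siPAK4 in both. As Tead1 and Tead2 made up almost all of the sum, their shares and their ratio show the same difference. How often such shares or ratios separate for other genes was not computed. Among single tested genes, 28.8% had groups that did not overlap. The Tead1 call depended on single libraries, and Tead2 did not pass. The ratio of Tead2 to Tead1, which no library scaling can move, was 2.01 to 2.59 in siPAK4 and 1.39 to 1.84 in siControl by TPM. By raw counts it was 0.431 to 0.558 in siPAK4 and 0.3 to 0.398 in siControl. The count ratio differs from the TPM ratio only by a fixed length factor, so it is no second measure. The summed TEAD level was 59.5 ± 9.08 TPM in siPAK4 and 60.2 ± 4.56 TPM in siControl (SD, n = 4 each), with overlapping ranges. Tead3 and Tead4 together were a small part, at 1.26 ± 0.482% and 3.1 ± 0.573% in siPAK4 and 2.48 ± 0.666% and 2.82 ± 0.0921% in siControl.

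**Figure D2:**
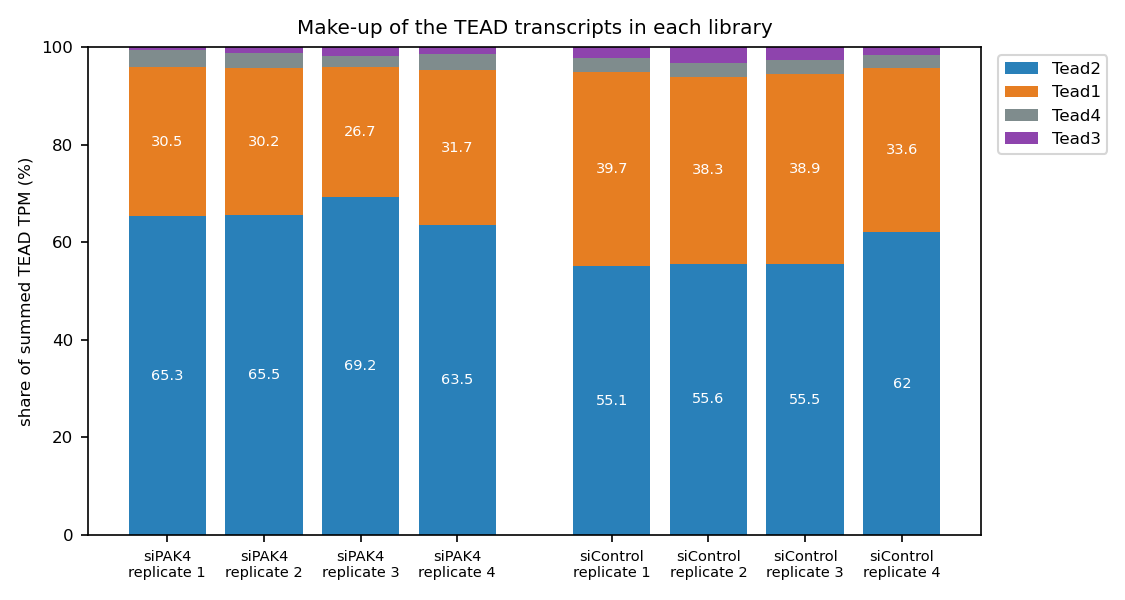
Share of each TEAD gene in the summed TEAD TPM (%, deposited values) in the 4 siPAK4 libraries (left) and the 4 siControl libraries (right). Tead1 takes 26.7 to 31.7% in siPAK4 and 33.6 to 39.7% in siControl, and Tead2 63.5 to 69.2% in siPAK4 and 55.1 to 62% in siControl.

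LATS1 and LATS2 are the kinases that phosphorylate YAP and TAZ. Lats1 (chromosome 10, 7681200 to 7716461, plus strand) was the steadiest of the 10 genes across siPAK4 libraries, with 73.6, 73.3, 70.9 and 74.4 CPM in siPAK4 and 73.5, 70.4, 77.5 and 66.9 CPM in siControl. The groups overlapped, and the log2 fold change was 0.02 (SE 0.0565, adjusted p = 0.85 by edgeR; 95% interval -0.1 to 0.14), and 0.03 without siPAK4 replicate 3. Lats2 (chromosome 14, 57689662 to 57746212, minus strand) had 123, 117, 91.4 and 124 CPM in siPAK4, against 127, 112, 117 and 107 CPM in siControl. SiPAK4 replicate 3 was the lowest of the 8, and the other 3 siPAK4 libraries lay within the siControl range. Its log2 fold change was -0.02 (SE 0.0928, adjusted p = 0.89 by edgeR), 0.07 without siPAK4 replicate 3, and positive also with library totals (0.07), FPKM (0.07) and TPM (0.01). The TPM ratio of Lats2 to Lats1 was 1.84 in siPAK4 replicate 3 and 2.28 to 2.37 in the other siPAK4 libraries, against 2.13 to 2.42 in siControl. In the GENCODE M21 annotation Lats2 shares 2955 exonic bases with the same-strand gene Gm49361, whose symbol is not in the table. Reads over these shared bases cannot be told apart from those of that gene.

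The angiomotin-like proteins bind YAP and TAZ at cell junctions and promote LATS activity. Amotl1 (chromosome 9, 14541966 to 14662974, minus strand) had 236, 234, 176 and 237 CPM in siPAK4 replicates 1 to 4, against 219, 218, 216 and 205 CPM in siControl replicates 1 to 4. SiPAK4 replicates 1, 2 and 4 lay above every siControl library and siPAK4 replicate 3 lay below all of them. With all libraries the log2 fold change was 0.04 (SE 0.0873, adjusted p = 0.77 by edgeR). Without siPAK4 replicate 3 it was 0.13 and was called higher (SE 0.0439, adjusted p = 0.035 by edgeR; 0.035 to 0.98 over all alternatives).

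Amotl2 (chromosome 9, 102717091 to 102733418, plus strand) had 127, 118, 93.4 and 123 CPM in siPAK4, against 131, 131, 121 and 121 CPM in siControl. The groups overlapped, and its log2 fold change of -0.13 (SE 0.0865) did not pass (adjusted p = 0.32 by edgeR). Without siPAK4 replicate 3 it was -0.04 (adjusted p = 0.62 by edgeR). In siPAK4 replicate 3 both Amotl1 and Amotl2 lay below every siControl library, but their ratio was lower in each siPAK4 library. The TPM ratio of Amotl2 to Amotl1 was 1.15, 1.08, 1.14 and 1.12 in siPAK4 replicates 1 to 4. In siControl replicates 1 to 4 it was 1.29, 1.29, 1.19 and 1.26. These ranges did not overlap, also with siPAK4 replicate 3 counted in. The raw count ratio was 0.505 to 0.538 in siPAK4 and 0.558 to 0.601 in siControl. It differs from the TPM ratio only by a fixed length factor, so it separates with it and is no second measure. How many other gene pairs separate in this way was not computed. Among single tested genes, 28.8% had groups that did not overlap.

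**Figure D3:**
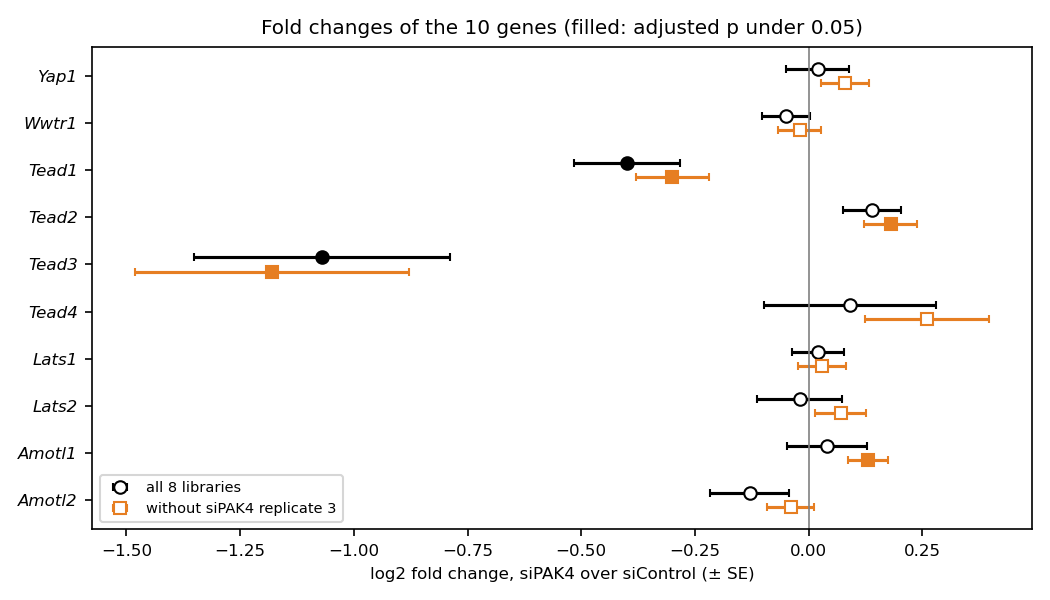
Log2 fold change (siPAK4 over siControl) ± SE of the 10 genes from edgeR's quasi-likelihood fit, with all 8 libraries (black circles) and without siPAK4 replicate 3 (orange squares); filled symbols have an adjusted p under 0.05. Tead1 and Tead3 are called in both fits, Tead2 (0.18) and Amotl1 (0.13) only in the fit without that library, of these 2.

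The genes nearest to 2 of the 10 in pattern were found by the root mean square difference of log2 CPM, centred on each gene's mean, over the 8 libraries, among 11360 (for Yap1) or 11361 (for Tead3) other genes of at least 5 CPM. Nearest to Yap1 were Dennd4a (0.021), Gmeb2 (0.0255) and Xpo6 (0.0284), none of which passed the test. Nearest to Tead3, the gene of the 10 with the smallest adjusted p, were Mgat3 (0.195), the Wnt ligand gene Wnt5a (0.239) and the transporter gene Abca9 (0.25), with log2 fold changes of -1, -1.03 and -0.97. All were picked for closeness over the same libraries, so fold changes near those of Yap1 and Tead3 follow from the choice.

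Of 44 tested genes in 4 lists of other Hippo components, 9 were lower, 5 were higher and 30 stayed uncalled, beside 14.5% lower and 12.4% higher among all tested genes. The median log2 fold change of the 44 was -0.03. In the list of the MST and LATS kinase cassette 2 of 11 were higher, 2 were lower and 7 stayed uncalled (median -0.02). Sav1, which encodes the scaffold of the MST kinases, had 68.4, 68.1, 60.7 and 68.1 CPM in siPAK4 replicates 1 to 4, against 52.3, 45.3, 47.8 and 46.6 CPM in siControl replicates 1 to 4. All siPAK4 libraries lay above all siControl libraries (log2 fold change 0.47, SE 0.064, adjusted p = 0.00029 by edgeR). Map4k4, a kinase that can activate LATS in parallel to MST, was higher (0.21, adjusted p = 0.044 by edgeR). Mob1b, a LATS coactivator (-0.33, adjusted p = 0.027 by edgeR), and Taok3, of a family that activates MST (-0.28, adjusted p = 0.035 by edgeR), were lower, and Taok1 did not pass (-0.07, adjusted p = 0.42 by edgeR; 0.02 with library totals).

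Among upstream scaffolds and polarity inputs edgeR called 0 of 15 higher and 4 lower, and 11 stayed uncalled (median -0.16). DESeq2 and limma-voom also called 0 higher, and 0 genes had a positive fold change with an unadjusted p under 0.05. Frmd6, the FERM-domain relative of fly Expanded, had 74.7, 72.6, 62.5 and 83.5 CPM in siPAK4 and 116, 120, 119 and 119 CPM in siControl. The groups lay far apart (log2 fold change -0.69, SE 0.0764, adjusted p = 6.3e-05 by edgeR). The atypical cadherin gene Fat1 was lower by a similar amount, at 120 ± 16.1 CPM in siPAK4 and 190 ± 14.7 CPM in siControl (-0.67, adjusted p = 0.00031 by edgeR). Dchs1, an atypical cadherin that binds FAT4 (-0.53, adjusted p = 0.041 by edgeR), and Amot, the founding angiomotin gene (-0.43, adjusted p = 0.0073 by edgeR), were lower as well, while the junction scaffold gene Tjp1 did not pass (0.09, adjusted p = 0.61 by edgeR; 0.2, adjusted p = 0.045, without siPAK4 replicate 3). Without siPAK4 replicate 3, Dchs1 was at -0.36 (adjusted p = 0.0037 by edgeR) and Amot at -0.33 (adjusted p = 0.0016 by edgeR).

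Among inhibitors of MST and LATS edgeR called 2 of 10 higher and 0 lower, and 8 stayed uncalled (median 0.08). DESeq2 and limma-voom also called 0 lower, and 1 gene, Strn3, had a negative fold change with an unadjusted p under 0.05. Strn4, a striatin of the phosphatase complex that dephosphorylates MST, had 161 ± 13 CPM in siPAK4 and 129 ± 7.32 CPM in siControl (a log2 fold change of 0.32; adjusted p = 0.0047 by edgeR). Limd1, a LIM protein that binds LATS (0.18, adjusted p = 0.031 by edgeR), was also higher, and Strn3 did not pass (-0.13, adjusted p = 0.12 by edgeR). Among TEAD cofactors and genes of YAP and TAZ retention or turnover 1 of 8 tested was higher, 3 were lower and 4 stayed uncalled (median -0.08), and Vgll1 and Vgll2 had no read in any library. Vgll3, a TEAD-binding cofactor of fibroblasts, had 32.8, 39.2, 36.9 and 37.4 CPM in siPAK4, against 63.1, 56.1, 68.2 and 49 CPM in siControl. It was lower without overlap (-0.69, adjusted p = 0.00035 by edgeR), whereas Vgll4, a TEAD binder that competes with YAP, was higher at 46.6 ± 1.75 CPM in siPAK4 and 38.9 ± 1.21 CPM in siControl (0.26, adjusted p = 0.0048 by edgeR). The 14-3-3 genes Ywhae (-0.49, adjusted p = 0.0012 by edgeR) and Ywhab (-0.22, adjusted p = 0.033 by edgeR), whose proteins hold phosphorylated YAP in the cytoplasm, were lower, and Ywhaz did not pass (-0.16, adjusted p = 0.066 by edgeR), though it did with DESeq2 (adjusted p = 0.026) and without siPAK4 replicate 3 (adjusted p = 0.049) or siControl replicate 4 (adjusted p = 0.035).

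Several of these calls depended on single libraries. Without siControl replicate 3 the calls of Mob1b, Taok3, Map4k4, Dchs1, Limd1 and Ywhab were all lost (edgeR adjusted p of 0.053 to 0.12), and each was also lost without at least 2 other libraries. Of the 44 genes, 5 were then lower and 3 higher; without siControl replicate 1, 5 were lower; without siPAK4 replicate 2, siPAK4 replicate 4 or siControl replicate 2, 3 were higher; and without siPAK4 replicate 3, 8 were higher. Amot kept its call without each library in turn but lost it with TPM (adjusted p = 0.1 by limma at either pseudocount) and FPKM (adjusted p = 0.061 by limma). Sav1, Frmd6, Fat1, Strn4, Vgll3, Vgll4 and Ywhae kept their calls in every fit tried.

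Many transcripts that YAP, TAZ and TEAD are known to induce were lower with siPAK4. Of 20 signature targets outside the 10 genes, 11 were lower, 1 was higher and 8 stayed uncalled, beside 14.5% lower among all tested genes. Their median log2 fold change was -0.39 against 0.01 for all tested genes. Amotl2 and Lats2, of the 10 genes, also belong to the signature and are not in this count or median. Neither passed the test (log2 fold changes of -0.13 and -0.02). In every alternative fit 10 to 12 of the 20 were lower. The list was chosen with earlier results of these data known, so these counts are a description and no independent test. Ccn1, a matricellular immediate target, had 116, 111, 103 and 116 CPM in siPAK4 replicates 1 to 4, against 214, 216, 204 and 197 CPM in siControl replicates 1 to 4. The groups lay far apart (log2 fold change -0.90, SE 0.0573, adjusted p = 2e-06 by edgeR). Ccn2, its relative with a role in fibrosis, had 370, 320, 290 and 373 CPM in siPAK4, against 587, 552, 529 and 531 CPM in siControl (-0.70, adjusted p = 9.8e-05 by edgeR). Ankrd1, a muscle ankyrin repeat protein gene whose promoter is printed above, had 94, 100, 90 and 104 CPM in siPAK4, against 134, 131, 139 and 132 CPM in siControl (-0.47, adjusted p = 0.00012 by edgeR). For each of these 3 targets siPAK4 replicate 3 was the lowest library, and the other siPAK4 libraries were also below every siControl library.

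The growth factor gene Tgfb2 had the largest change in the signature, at 19.3, 14.5, 10.8 and 18.7 CPM in siPAK4, against 64, 57.2, 64.3 and 52.8 CPM in siControl (log2 fold change -1.91 with an SE of 0.157 and an edgeR adjusted p = 1.1e-05). The guanine nucleotide exchange factor gene Dock5 was at 55.1 ± 5.35 CPM in siPAK4 and 99.6 ± 4.16 CPM in siControl (-0.85, adjusted p = 1e-05 by edgeR). Crim1, the most abundant target that did not pass, had 423 ± 76.8 CPM in siPAK4 and 520 ± 21.9 CPM in siControl (-0.30, adjusted p = 0.069 by edgeR), without overlap, and it was called without siPAK4 replicate 1 (adjusted p = 0.037), 3 (-0.19, adjusted p = 0.038) or 4 (adjusted p = 0.046), with DESeq2 (adjusted p = 0.039) and with the replicate block (adjusted p = 0.041). The 1 target that was higher, named after its values were seen, was the scarce Foxf2, a forkhead factor of stellate cells and other mesenchyme, at 1.18 ± 0.128 CPM in siPAK4 and 0.722 ± 0.129 CPM in siControl (0.71, adjusted p = 0.019 by edgeR). Its call was lost without siPAK4 replicate 2 (adjusted p = 0.061), siControl replicate 2 (adjusted p = 0.058) or siControl replicate 4 (adjusted p = 0.054). Ccn1, Ccn2, Tgfb2 and others of the signature are induced by several pathways besides YAP, and the summed endothelial, macrophage and mesothelial markers were lower in the same siPAK4 libraries, with 3 endothelial markers higher; their part in the target values was not tested.

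**Figure D4:**
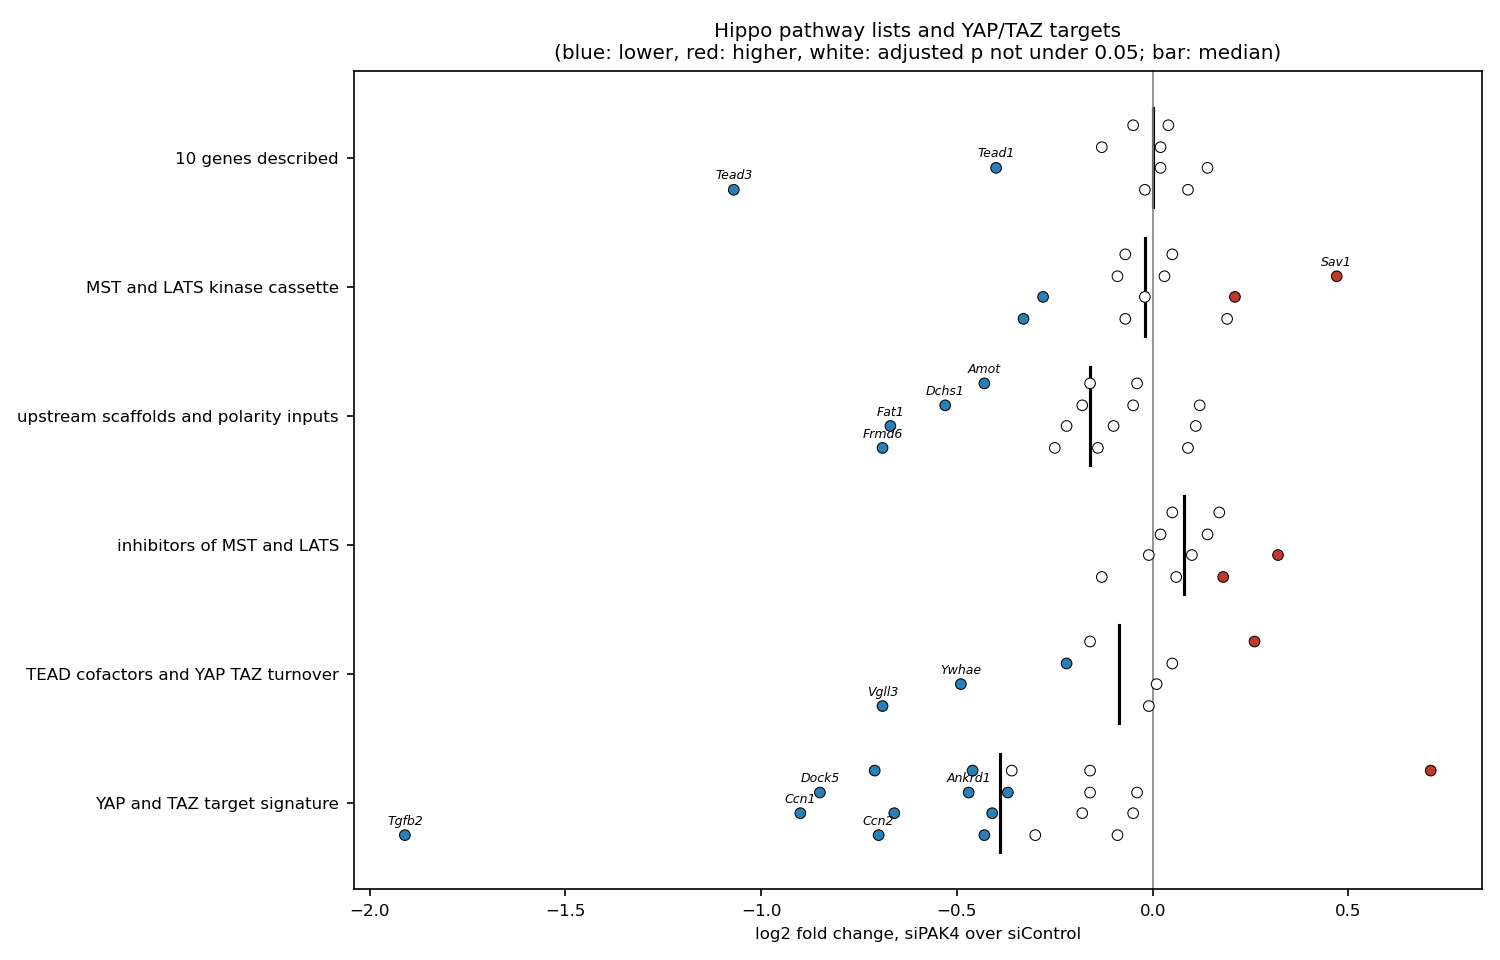
Log2 fold change (siPAK4 over siControl) of the 10 genes, of 4 lists of other Hippo pathway components and of the YAP and TAZ target signature. The signature is shown without its members Amotl2 and Lats2, which are among the 10 genes. Each point is 1 gene, coloured by its edgeR call, and the black bar is the list's median. The 10 genes and the pathway lists have medians of -0.16 to 0.08, and the targets a median of -0.39 with 11 of 20 lower.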

How the data were processed

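RNA was measured in 4 siPAK4 and 4 siControl libraries. Per the file headers, the authors deposited raw read counts, FPKM and TPM per gene; FPKM and TPM are the authors' depth- and length-scaled values. Per the submitters' processing notes, the tools were HISAT2 2.1.0 and StringTie 2.1.3b, along with Bowtie2 2.3.4.1, FastQC 0.11.7 and bcl2fastq 2.20.0, and the build was mm10. How reads were counted, with which strand setting, and what was done with multi-mapping reads is stated by no source used here, so reads shared with paralogs or overlapping genes are uncertain (116 exonic bases of Yap1 overlap an antisense transcript, and 13 of Tead2 overlap Cd37). Columns were matched to samples by library name, with 0 left over.

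Counts (55728583 to 61535063 per library) were filtered with filterByExpr (minimum count 10; 17975 of 45777 genes kept), TMM-scaled and tested by edgeR 4.0.16's quasi-likelihood test with robust estimation and Benjamini-Hochberg adjustment over all tested genes (threshold 0.05). CPM use the TMM-scaled library size. SEs come from the F statistic, and 95% intervals from the SE and the test's degrees of freedom. The procedure was run on simulated counts with the same dispersion for every gene, changes of a fixed size and no outlying library. That setting is simpler than these data, so it does not show how the procedure performs on them. Alternatives used DESeq2 1.42.0, limma 3.58.1, other scalings, filters and units, a replicate block, and leaving out each library. No 2 libraries of a group agreed within sampling noise (chi-square per degree of freedom 13.9 to 76.2).

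The 10 genes and all lists were chosen with earlier results of these data known. Of each pathway and target list, up to 5 called genes with the smallest p and the most abundant uncalled gene were named, with the 3 genes nearest in pattern to Yap1 and to the member with the smallest p. Coordinates are those of RefSeq's GRCm38.p6 table, counted from 1; overlaps are from GENCODE M21.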

Additional observations from a re-analysis of the deposited data

Results flagged for a closer look

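Within groups of 4 libraries, the highest or lowest library stood apart from the rest in 6 of 70 groups tested (each named gene in each group), 4 of them among the 20 groups of the 10 genes. For independent groups chance gives about 1 in 20. These groups share the same libraries, and most flags fell on siPAK4 replicate 3, so the counts cannot be held against that rate. SiPAK4 replicate 3 was low for Yap1 (74.3 CPM, with 87.1 to 89.5 CPM in the other siPAK4 libraries), Tead1 (61.5 CPM, with 84.4 to 86.4 in the others), Amotl1 (176 CPM, with 234 to 237 in the others) and Sav1 (60.7 CPM, with 68.1 to 68.4 in the others). SiControl replicate 3 was high for Wwtr1 (261 CPM, with 243 to 246 in the other siControl libraries) and low for Vgll4 (37.1 CPM, with 39.2 to 39.6 in the others). These libraries were kept, and the log2 fold change of each of the 10 genes without siPAK4 replicate 3 is given with that gene (Sav1 was at 0.51 without it).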

How the results depend on the processing

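Of the 10 genes, 2 were lower; 1 was with library totals and with TPM at a pseudocount of 1 or 0.1, 0 with FPKM (for which Tead3 lay under the filter), and 0 to 2 when single libraries were left out. None was higher, but 1 was with library totals and with FPKM, and 0 to 2 when libraries were left out. Other Hippo components numbered 9 lower (5 with library totals, 4 with TPM at either pseudocount and with FPKM, 5 to 11 without single libraries) and 5 higher (3 with no filter on low counts, 3 to 8 without single libraries). Targets that were higher numbered 1, 0 with a mean of at least 1 CPM, 0 with FPKM and 0 to 1 without single libraries. Over all genes, 2605 were lower (1658 and 1634 with TPM at a pseudocount of 1 and 0.1, 1448 with FPKM, 1944 to 2998 without single libraries) and 2227 higher (3877 with library totals, 3397 with FPKM, 1599 to 2496 without single libraries). Near-zero fold changes turned sign without passing: Yap1 (-0.0042 without siPAK4 replicate 4, -0.0073 without siControl replicate 4, and up to 0.08 without the others), Wwtr1 (0.04 with library totals and FPKM), Tead4 (-0.0033 without siPAK4 replicate 1, and up to 0.26 without the others), Lats1 (-0.02 without siControl replicate 4, and up to 0.06 without the others), Lats2 (0.07 with library totals, FPKM and without siPAK4 replicate 3, 0.01 with TPM, 0.02 without siControl replicate 1, and -0.07 to 0.07 over the left-out libraries) and Taok1 (0.02 with library totals and FPKM). The cause was not tested. Replicate numbers gave no clear sign of pairing (correlations of same-numbered deviations -0.0544 to 0.0868, and not every library correlated best with its own number). With so few libraries this check cannot exclude a pairing. With the replicate block 2056 genes were higher and 2531 lower, the 10 genes had 2 lower and 0 higher, other components 8 lower and 5 higher, and targets 12 lower and 1 higher. Depth limits Tead3 and Tead4, whose counts were 29 to 177 per library.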
